A study of Mus musculus with 40 samples.

Results

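Normal ageing of the cerebral cortex was examined by comparing 4 aged wild-type mice with 4 young wild-type mice, which were 8 of the 40 samples of a study of ageing and vitamin E in mouse cortex and cerebellum. The samples were chosen by their labels and not by any measured value. Both groups were of the C57Bl/6 strain and were fed the normal diet, which held 36 mg of alpha-tocopherol/kg, so age was the labelled difference. Young mice were 2 months old and aged mice were 29 months old. Total RNA of each cortex was labelled with Cy3 and hybridized to its own 1-colour Agilent array. The other groups were aged wild-type mice on a deficient diet, aged Ttpa-/- mice on a deficient or supplemented diet, and the cerebellum of each kind of mouse. Of these, only young and aged wild-type cerebellum on the normal diet, 4 arrays each, is compared here.

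The brain ages without the loss of most of its neurons, and the glial and immune cells around them are known to change. Microglia, the resident macrophages, survey the tissue through receptors such as P2ry12 and Cx3cr1 and can pass into a lipid-handling, phagocytic state that depends on the receptor Trem2 and its adaptor Tyrobp. Astrocytes, which support synapses and the blood-brain barrier, become reactive and build intermediate filaments. Interferons induce antiviral proteins and the class I antigen presentation machinery.

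A level is given here as log2 of the processed signal minus log2 of the array's 75th percentile, so that 0 is the level of the 75th percentile and a change of 1 is a 2-fold change. Each gene was read from its probe with the highest mean over the 40 arrays, and levels of different genes are not compared. A call of up-regulated or down-regulated required an adjusted p under 0.05 together with more than 1.5-fold difference. These are limma's moderated tests with Benjamini-Hochberg adjustment over every probe that was well above background on 4 of 4 arrays of at least 1 group. Genes were grouped into lists of cell type markers, pathways and families.

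The share of probes detected above background was 51.4% to 56.9% on the 8 arrays, and none was saturated. The cortical neuron genes Slc17a7 and Gad1 were well above background on each of the 8 arrays, while the cerebellar granule cell genes Gabra6 and Cbln3 were above it on none. The labels do not give the sex of the mice, and the Y-linked genes were below background in both groups. The X-linked Xist, the 1 sex-linked gene that could be tested, had a change of 0.255 and was not called. Choroid plexus genes stood apart on the arrays numbered 4 of both groups. Ttr, the transthyretin of the choroid plexus, was at 6.90, 6.71, 6.81 and 0.76 in young mice and at 6.49, 5.56, 7.07 and 1.72 in aged mice. Young and aged cortex shared 1 slide, with the young mice in 1 column of positions and the aged mice in the other, so array position and age cannot be told apart.

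Of 28043 probes tested, 446 were up-regulated with age (1.59%) and 142 were down-regulated (0.506%). Read as genes, 349 of 14974 were up-regulated (2.33%) and 71 were down-regulated (0.474%). The median change over the genes tested was -0.01, and 48.3% of them had a positive change, while the calls leaned upward. The 4 aged arrays lay above the 4 young arrays for 1421 genes (9.49%) and below them for 1091 (7.29%), which is the background for the counts of arrays without overlap given below. Among the called genes, 318 of the 349 and 65 of the 71 had arrays that did not overlap. The plot of the lists shows where the calls gathered. Microglial, complement, antigen presentation, chemokine and reactive astrocyte lists held many, and lists of neuronal and synaptic genes held few or none. The lists were chosen with earlier results of these data known, so their counts are a description and not a test. The shares of genes called, 2.33% and 0.474%, are the background for these counts, and a short list with 0 calls lies near them.

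**Figure D1:**
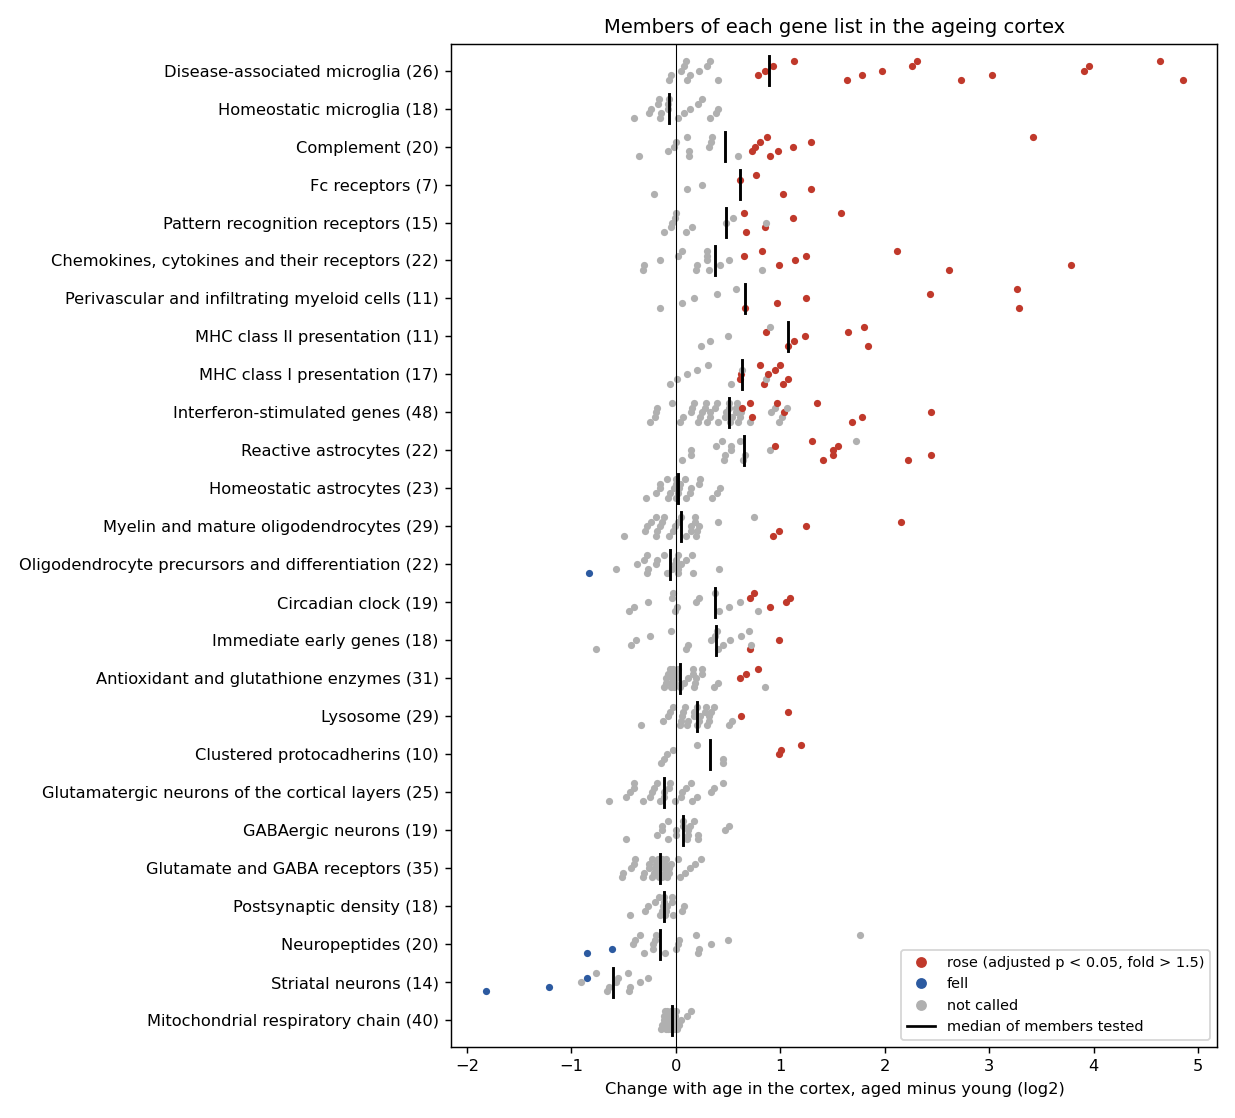
Each point is 1 gene of a list and its x value is the log2 change of aged over young cortex, coloured by whether it was called, with a black bar at the list's median. The disease-associated microglia and MHC class II lists have medians of 0.89 and 1.08, while the lists of synaptic and receptor genes lie close to 0 and the striatal list lies at -0.61.

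The phagocytic state of microglia, known from disease models as disease-associated microglia, held the largest rises of single genes in the aged cortex. Of its 26 genes, 15 were up-regulated and none was down-regulated, with a median change of 0.89. Cst7, which encodes cystatin F, an inhibitor of lysosomal cathepsins, was at -5.78, -4.71, -5.25 and -4.44 in young mice and at -0.40, 0.60, 0.66 and -1.65 in aged mice. It was above background in 0 of 4 young and 4 of 4 aged mice and was at least 18.7-fold higher with age (adjusted p = 1.55e-11), read from a probe at chr2:150404490-150404549 of mm9. The fold is a lower bound, because the young mean was replaced by the lowest signal that counted as above background on those arrays.

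Itgax, the integrin CD11c, was at -5.61, -6.28, -4.58 and -5.09 in young mice and at -0.85, -0.41, -0.22 and -1.55 in aged mice. It was also above background only in the aged group, at least 12.7-fold higher (adjusted p = 2.67e-12). Clec7a, the beta-glucan receptor dectin-1, was at -3.56, -3.79, -3.45 and -4.44 in young mice and at 0.14, 0.82, 0.99 and -1.37 in aged mice. Its change was 3.96 on the log2 scale with a standard error of 0.32 (adjusted p = 5.26e-10). In each of these 3 genes the lowest aged array was number 4, and it still lay above every young array.

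Further members of the list rose with age: the inhibitory receptor Lilrb4a was at least 7.78-fold higher, from a probe that the files assign to 2 genes. The chemokine genes Ccl3 and Ccl4 were above background in 1 of 4 young and 4 of 4 aged mice and were called (adjusted p = 2.56e-08 and 3.28e-08), but their young signals lay near background and no exact change is given. The lysosomal glycoprotein gene Gpnmb rose by 2.31, and Lgals3, which encodes galectin-3, by 2.26. Cd52, Spp1 and Ch25h rose by 1.78, 1.64 and 1.97. The receptor Trem2 was at 2.07, 2.01, 2.00 and 2.56 in young mice and at 3.02, 3.19, 3.24 and 2.62 in aged mice, a rise of 0.85 ± 0.17 (SE, adjusted p = 0.00132), and its adaptor Tyrobp rose by 0.78. Apoe and Lpl, which carry and release lipids, were not called: Apoe had a change of 0.22 (adjusted p = 0.245) and Lpl of 0.07 (adjusted p = 0.921).

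The genes that mark resting microglia were not called. With 2.33% of all genes up-regulated and 0.474% down-regulated, 0 calls in a list this short is near that share. Of 18 tested homeostatic microglia genes, 0 were called by limma with Benjamini-Hochberg adjustment in either direction, 2 passed an unadjusted p of 0.05, and the median change was -0.07. P2ry12, the purinergic receptor that guides microglial processes, was at 0.89, 0.87, 0.86 and 1.14 in young mice and at 0.78, 0.85, 0.82 and 0.71 in aged mice, a small step without overlap that did not pass (adjusted p = 0.794). Cx3cr1 and Tmem119 had changes of -0.15 and 0.13, and Aif1, which encodes Iba1, had a change of 0.32 (adjusted p = 0.381). In whole tissue a change in the number of cells of a type and a change in RNA per cell cannot be told apart. The summed level of the homeostatic list, in units of the 75th percentile, was 386 to 454 in young mice and 410 to 473 in aged mice. Such sums add unlogged levels and lean on the brightest members of a list, so this sum does not measure the number of microglia.

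**Figure D2:**
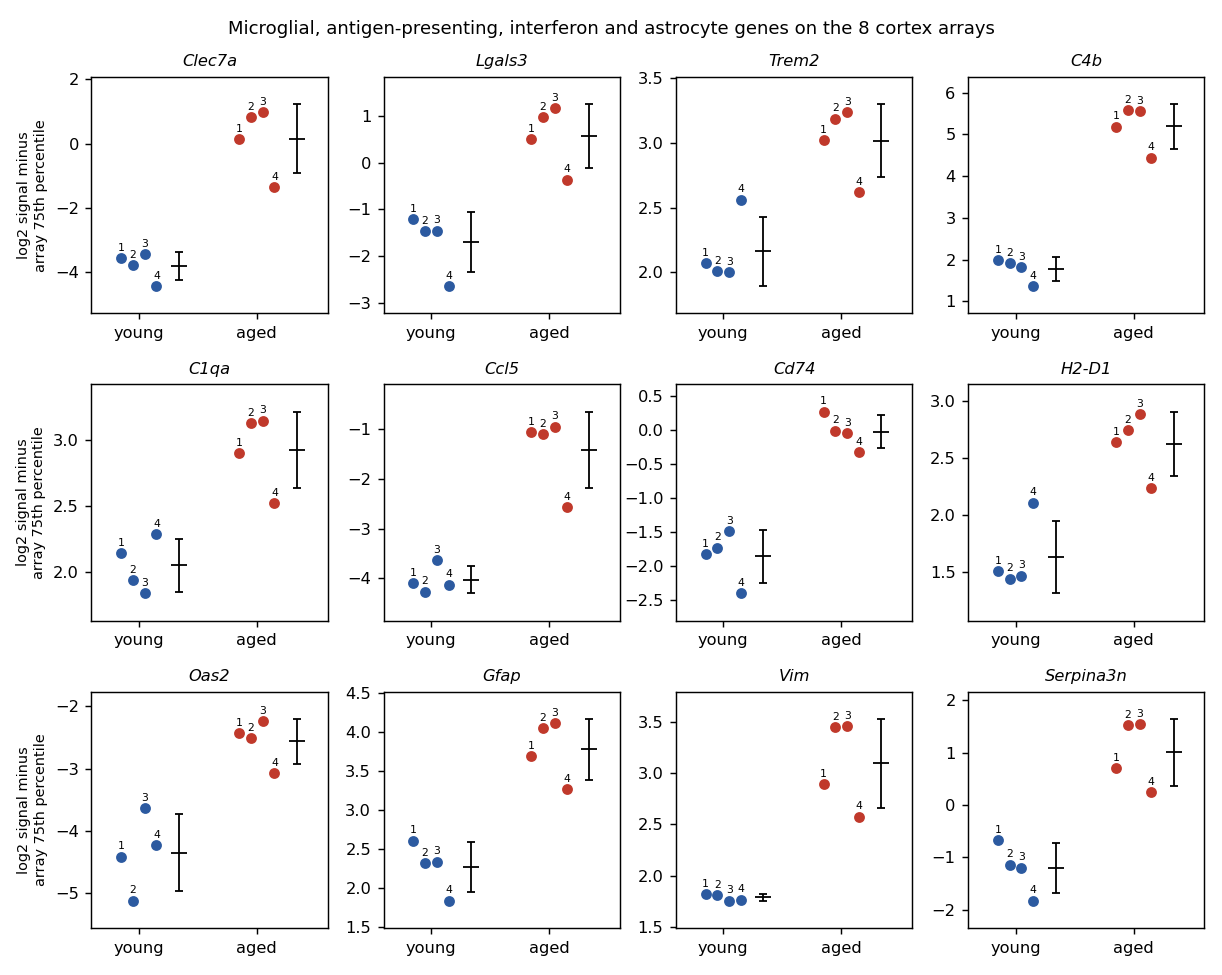
Log2 level relative to the array's 75th percentile (y axis) of 12 genes in young and aged cortex, each point 1 mouse labelled by its number, with the group mean and SD. The aged mice lie above the young mice in each panel, and the aged mouse numbered 4 is the lowest aged mouse in each of the 12 panels.

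Complement tags cells and synapses for removal, and both its first component and the inhibitor of that component rose. Of 20 tested genes, 9 were up-regulated and none was down-regulated, with a median change of 0.47. C4b, the fourth component, was at 1.99, 1.91, 1.82 and 1.36 in young mice and at 5.19, 5.58, 5.55 and 4.44 in aged mice. The change of 3.42 ± 0.22 (SE, adjusted p = 2.67e-12) was read from a probe at chr17:34865328-34865387 of mm9 that the files assign to both C4a and C4b. C1qa, the A chain of the C1q complex that starts the classical pathway, was at 2.14, 1.94, 1.84 and 2.29 in young mice and at 2.90, 3.13, 3.14 and 2.52 in aged mice. This was a rise of 0.87 (adjusted p = 0.000264), and C1qb and C1qc by 0.76 and 0.73. C3 rose by 1.30, C2 by 0.98, and the C1 inhibitor gene Serping1 by 0.81. The other probe of C3, which was dimmer, rose by 3.54, so the size of the C3 change differed between probes. C3ar1, the C3a receptor, was called with a change of 1.12, but its groups overlapped and the call was lost without any of 5 of the arrays.

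Receptors that bring antibodies and microbial products to phagocytes rose in part. Of 7 tested Fc receptor genes, 4 were up-regulated: Fcgr4, Fcgr2b, Fcgr3 and Fcer1g, the last with overlapping groups. Fcgr4 was above background in 0 of 4 young mice and was at least 1.93-fold higher in aged mice. Fcgr2b, the inhibitory member of the family, rose by 1.02 (adjusted p = 4.09e-05). Of 15 pattern recognition receptor genes, 5 were up-regulated. Tlr2, a receptor for lipoproteins, rose by 1.57 (adjusted p = 2.08e-05), Tlr4, the endotoxin receptor, by 1.12 and its co-receptor Cd14 by 0.85. Tlr7, which senses RNA in endosomes, had a change of -0.01 (adjusted p = 0.996). Tlr4 was above background in 2 of 4 young mice. Under median scaling 2 Fc receptor and 2 pattern recognition genes were called, under normexp background correction 2 and 3, and with the methods' t-test after adjustment 3 and 1.

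Of 22 tested chemokine, cytokine and receptor genes, 8 were up-regulated. Ccl8, a monocyte chemoattractant, was above background in 0 of 4 young mice and 4 of 4 aged mice and was at least 3.85-fold higher. Ccl5, which draws T cells, was at -4.09, -4.26, -3.64 and -4.13 in young mice and at -1.06, -1.1, -0.95 and -2.57 in aged mice (change 2.61, adjusted p = 6.38e-07). Ccl2 was at least 2.87-fold higher, and Cxcl16 rose by 1.25. Csf1, the growth factor of microglia, was at 0.14, 0.21, 0.11 and 0.13 in young mice and at 0.97, 1.17, 1.1 and 0.65 in aged mice. Its groups did not overlap, and it rose by 0.82. The classical inflammatory cytokines were not measurable here: Il1b was above background in 1 young and 2 aged mice and was not tested, and Tnf was above background in none of the 8. Without any of 4 single arrays, the aged mice numbered 1 to 3 or the young mouse numbered 3, 5 chemokine and cytokine genes were called.

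Markers of other immune cells were examined beside these lists. Of 11 tested genes of perivascular and infiltrating myeloid cells, 6 were up-regulated. The calprotectin genes S100a9 and S100a8, abundant in neutrophils and monocytes, rose by 3.29 and 3.26. Lyz2, the lysozyme of macrophages, rose by 2.43 (adjusted p = 1.22e-08), S100a4 by 1.24 and Ms4a7 by 0.96. The summed level of the list was 4.69 to 8.96 in young and 8.22 to 11.4 in aged mice, while the granulocyte genes Ltf and Ngp were above background on no array. The mannose receptor Mrc1 of perivascular macrophages had a change of 0.17 (adjusted p = 0.663). Without the young mouse numbered 4, 4 of these genes were called, and without the mice numbered 4 of both groups, 3. Of 21 T cell and cytotoxic genes 9 could be tested and 0 were called by limma with Benjamini-Hochberg adjustment, with a median change of -0.07 and none at an unadjusted p of 0.05. Cd3d, Cd8a and Gzmb were among 11 of the 21 genes that were above background on none of the 8 arrays. The summed level of the list was 172 to 204 in young and 171 to 186 in aged mice. That sum rests on the other genes, Thy1 and Cd4 among them, so it does not measure T cell content. Of the B cell and plasma cell genes only 2 could be tested, with changes of 0.08 for Cd79a and -0.18 for Cd79b. Jchain, the joining chain of plasma cells, was above background in 0 young and 2 aged mice. What part such cells have in the chemokine and antigen presentation results was not tested.

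Antigen presentation rose in both classes. Class I molecules, which show peptides of the cell's own proteins to cytotoxic T cells, gave 9 up-regulated genes of 17, with a median change of 0.63, and 13 of the 17 had aged arrays above all young arrays. H2-K1, a classical heavy chain, was at 1.99, 2.04, 1.90 and 2.45 in young mice and at 3.23, 3.30, 3.38 and 2.74 in aged mice (change 1.07, adjusted p = 0.000525). H2-D1, the other classical chain, was at 1.51, 1.44, 1.47 and 2.11 in young mice and at 2.64, 2.74, 2.88 and 2.23 in aged mice. It rose by 0.99, and its nearest young and aged mice, both numbered 4, were 2.11 and 2.23. H2-Q7 rose by 1.03, the immunoproteasome subunit Psmb8 by 0.94, and B2m, the light chain that the heavy chains share, by 0.62 with overlapping groups. These heavy chains are near-identical in places, so probes for one may also bind another. There were 6 class I calls without the aged mouse numbered 2.

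Class II molecules, which professional antigen-presenting cells use, gave 7 up-regulated genes of 11 with a median change of 1.08, and 11 of 11 changes were positive. Cd74, the invariant chain, was at -1.83, -1.73, -1.49 and -2.41 in young mice and at 0.27, -0.01, -0.05 and -0.32 in aged mice (change 1.84, adjusted p = 0.000223). H2-Ab1 rose by 1.65, H2-Aa by 1.80 and H2-Eb1 by 1.24. The groups did not overlap in any of these 4 genes. H2-Aa was above background in 2 of 4 young mice, as were S100a8, Ch25h and C3ar1, and Clec7a, Ccl5 and Cxcl16 were above it in 3, so their changes rest partly on signals near background.

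Interferon-stimulated genes formed a broad but weaker shift. Of 48 tested genes, 43 had a positive change and the median was 0.51, but 9 were up-regulated and none was down-regulated. Cxcl10, a chemokine that interferon induces, was at -3.32, -3.69, -3.94 and -4.04 in young mice and at -0.68, -1.26, -1.01 and -2.26 in aged mice (change 2.45, adjusted p = 9.06e-06). Oas2, which senses double-stranded RNA, rose by 1.79 and Ifi27l2a by 1.69. Trim30a rose by 1.35, Oas1a by 1.04 and Ifitm3 by 0.73. The induced genes Ifit1, Ifit3 and Bst2 had changes of 0.91, 1.01 and 0.63 and did not pass the adjusted threshold. Irf7, a factor that drives the response, was not called, with a change of 0.04 (adjusted p = 0.985). The young mouse numbered 4 stood apart with a list mean of 0.17, against -0.08 to -0.04 in the other young mice, and the aged mouse numbered 4 was the lowest aged mouse at 0.21, against 0.63 to 0.72. Without the aged mouse numbered 4, 12 genes were called, and without any of 5 other mice, 6 were. Median scaling gave 5 calls and the methods' t-test after adjustment gave 1. Oas2 was above background in 1 of 4 young mice and Trim30a in 2.

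The promoters of interferon-stimulated genes are known for the interferon-stimulated response element, to which interferon-activated factors bind. Its core GAAANNGAA was searched on both strands from 250 bases before to 50 bases after the RefSeq start sites, in build GRCm38.p6. Overlapping matches were counted. The reference held promoters for only 35 of the 48 tested genes, so the share of the list with the motif is void as a check and is not given. Among all 27025 genes with a promoter, 9.76% held it. Of the 15 class I genes with a promoter, 3 held it, and B2m was the only one of these that was called. Of the 9 up-regulated interferon-stimulated genes, only 6 had a promoter and 4 held the core. This count is void as a check too and is not set against the share of all genes. These 4 promoters are shown so that the motif can be seen in place, with each match in capitals. A match in these letters is a description and not a measured binding site.
Cxcl10 (chr5:92348840-92349139, minus strand): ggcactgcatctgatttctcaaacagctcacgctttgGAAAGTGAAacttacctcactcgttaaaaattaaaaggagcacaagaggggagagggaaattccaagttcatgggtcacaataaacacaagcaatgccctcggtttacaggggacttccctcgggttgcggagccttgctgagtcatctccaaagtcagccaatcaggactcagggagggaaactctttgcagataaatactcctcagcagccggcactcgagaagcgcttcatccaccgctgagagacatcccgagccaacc
Trim30a (chr7:104465144-104465443, minus strand, match on the reverse strand): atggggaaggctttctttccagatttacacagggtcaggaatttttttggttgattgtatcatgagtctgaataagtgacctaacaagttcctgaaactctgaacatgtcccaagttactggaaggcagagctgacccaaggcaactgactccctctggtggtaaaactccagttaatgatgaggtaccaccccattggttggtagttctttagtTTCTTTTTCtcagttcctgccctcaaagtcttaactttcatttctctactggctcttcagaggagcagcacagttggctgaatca
Oas1a (chr5:120907476-120907775, minus strand, matches overlapping): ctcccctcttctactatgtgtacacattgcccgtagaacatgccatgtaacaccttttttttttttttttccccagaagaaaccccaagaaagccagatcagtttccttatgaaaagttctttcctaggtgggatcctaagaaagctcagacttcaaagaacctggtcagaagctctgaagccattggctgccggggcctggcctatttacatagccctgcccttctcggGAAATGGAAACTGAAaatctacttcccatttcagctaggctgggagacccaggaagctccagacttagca
Ifitm3 (chr7:141010695-141010994, minus strand): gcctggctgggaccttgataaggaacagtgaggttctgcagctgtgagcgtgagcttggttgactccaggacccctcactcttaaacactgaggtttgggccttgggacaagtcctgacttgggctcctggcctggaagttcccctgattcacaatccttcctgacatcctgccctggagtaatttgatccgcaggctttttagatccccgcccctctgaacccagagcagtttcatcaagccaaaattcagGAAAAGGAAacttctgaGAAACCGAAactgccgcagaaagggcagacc
The match began at position -213 relative to the start site in Cxcl10 and at -35 in Trim30a, and lay close to the start in Oas1a and Ifitm3. The changes of these genes in the aged cortex are the values of 2.45, 1.35, 1.04 and 0.73 given above.

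Among astrocyte genes, filament and serpin genes of the reactive state rose while the general markers were not called. Of 22 reactive astrocyte genes, 8 were up-regulated, 22 had a positive change and the median was 0.65. Gfap, the intermediate filament protein of astrocytes, was at 2.61, 2.32, 2.34 and 1.84 in young mice and at 3.69, 4.05, 4.12 and 3.27 in aged mice. It rose by 1.50 ± 0.18 (SE, adjusted p = 1.57e-06), read from a probe at chr11:102751813-102751872 of mm9, and its other probes rose by 1.90 and 1.46. Vim, the companion filament vimentin, was at 1.82, 1.81, 1.76 and 1.77 in young mice and at 2.89, 3.45, 3.46 and 2.58 in aged mice (change 1.30, adjusted p = 1.34e-06). Serpina3n, a secreted protease inhibitor, was at -0.67, -1.14, -1.20 and -1.83 in young mice and at 0.71, 1.53, 1.55 and 0.25 in aged mice (change 2.22, adjusted p = 0.00101). Aspg rose by 1.55, Timp1, an inhibitor of metalloproteinases, by 1.50, and Osmr, the oncostatin M receptor, by 1.41. Of this list, Cxcl10 is also counted among the interferon-stimulated genes and Psmb8 among the class I genes. Lcn2, an acute-phase lipocalin of reactive astrocytes, had a change of 1.72 and groups that did not overlap, but an adjusted p of 0.155. Of 23 homeostatic astrocyte genes, 0 were called by limma with Benjamini-Hochberg adjustment, with 6 at an unadjusted p of 0.05 and a median change of 0.02. The glutamate transporter Slc1a2 had a change of -0.19, the water channel Aqp4 of 0.13, the gap junction gene Gja1 of 0.00 and Aldh1l1 of 0.04. Without the aged mouse numbered 4 the reactive list had 11 calls.

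Oligodendrocytes, which make myelin, changed in few genes. Of 29 myelin and mature oligodendrocyte genes, 4 were up-regulated and the median change was 0.05. Structural myelin genes were not called: Mbp had a change of 0.14 at its brightest probe, Mog of -0.07 and Mag of -0.02. Another Mbp probe had a change of 0.58 that passed the adjusted p (9.07e-05) but not the fold. Apod, a lipocalin that binds lipids, was at 5.69, 5.70, 5.40 and 5.67 in young mice and at 6.64, 7.17, 7.04 and 6.59 in aged mice (change 1.25, adjusted p = 0.000846). Klk6, a secreted protease of oligodendrocytes, was at -2.21, -2.20, -2.36 and -1.48 in young mice and at 0.23, 1.20, 1.27 and -2.33 in aged mice, so that 1 aged mouse lay among the young mice although the gene was called (change 2.15, adjusted p = 0.00976). The cytokine Il33 and the septin-binding gene Anln rose by 0.98 and 0.93, and the Il33 call was lost without any of 7 of the arrays and under median scaling (adjusted p = 0.18). The list mean of the aged mouse numbered 4 was -0.42, against 0.16 to 0.52 in the others. There were 2 calls in the list without the aged mouse numbered 2 or 3.

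Of 22 genes of oligodendrocyte precursors and their differentiation, 1 was called. Gpr17, a receptor of cells on their way to myelination, was at 4.01, 3.74, 3.70 and 4.09 in young mice and at 3.23, 2.97, 3.1 and 2.90 in aged mice. The groups did not overlap and it was down-regulated by a change of -0.84 (adjusted p = 0.0321), a call that was lost without any of 6 of the arrays. The precursor markers Pdgfra and Cspg4 both had a change of 0.02, and Enpp6, of newly formed oligodendrocytes, of -0.58 (adjusted p = 0.465).

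Few neuronal genes were called. Over all genes 2.33% were up-regulated and 0.474% down-regulated, so 0 calls in any 1 list of this size is near that share. By limma with Benjamini-Hochberg adjustment, of 25 genes of glutamatergic neurons and cortical layers 0 were called, of 19 genes of GABAergic neurons 0, of 35 glutamate and GABA receptor genes 0, of 20 synaptic vesicle and active zone genes 0, and of 18 postsynaptic density genes 0. At an unadjusted p of 0.05 there were 2, 1, 5, 1 and 2. At an adjusted p under 0.05 without a fold threshold, limma called 1 receptor gene and 1 postsynaptic gene, both lower in aged mice. The medians were -0.11, 0.07, -0.15, -0.06 and -0.12, against -0.01 over all genes, and 29 of the 35 receptor genes had a change of 0 or below. Slc17a7, the vesicular glutamate transporter of cortical neurons, had a change of -0.16 (adjusted p = 0.778), and Gad1 and Gad2, which make GABA, of 0.17 and -0.00. Grin2a, a subunit of the NMDA receptor, had a change of -0.30 (adjusted p = 0.151). Dlg4, which encodes the scaffold PSD-95, was at 3.12, 3.01, 3.04 and 3.1 in young mice and at 2.72, 2.61, 2.56 and 2.65 in aged mice. The groups did not overlap, and the change of -0.44 passed the adjusted p (0.0315) but not the fold. Of 26 calcium handling genes, the plasma membrane calcium pump Atp2b2 was the only one called, with a change of -0.59, and its other probe had a change of -0.33 that was not called. That call was lost without the aged mouse numbered 1 or 3 or the young mouse numbered 4.

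**Figure D3:**
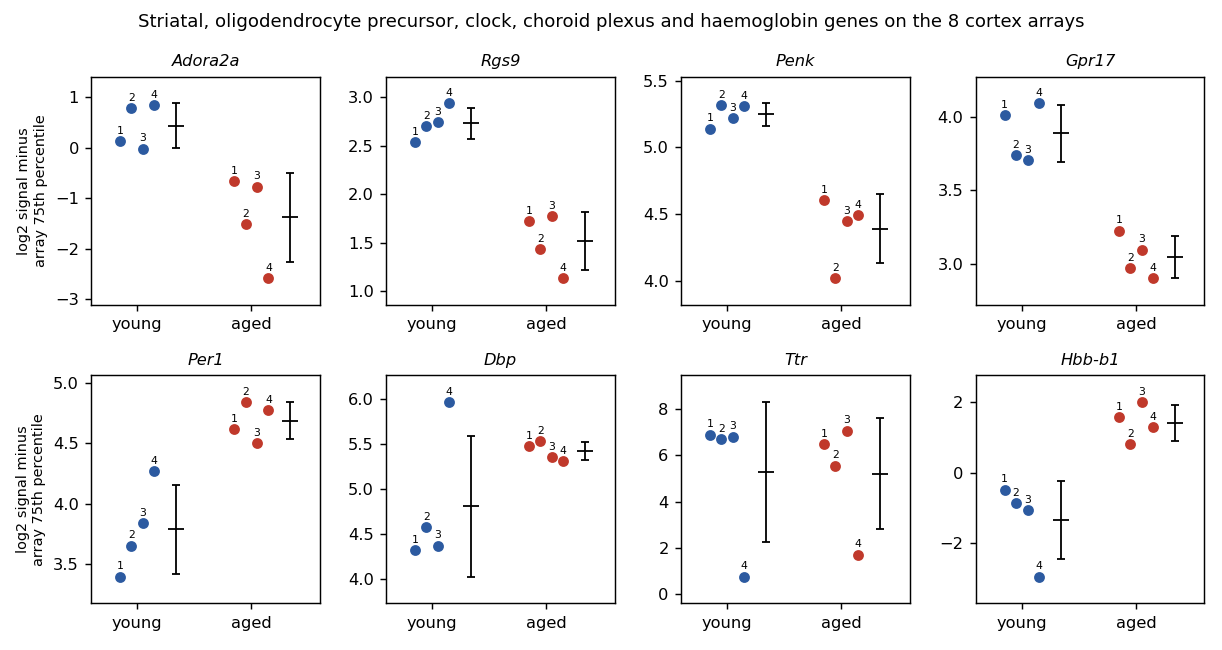
Log2 level relative to the array's 75th percentile (y axis) of 8 genes in young and aged cortex, each point 1 mouse labelled by its number, with the group mean and SD. Adora2a, Rgs9, Penk and Gpr17 are lower in aged mice, Per1 is higher, Dbp has 1 high young mouse, Ttr is low in the mice numbered 4 of both groups, and Hbb-b1 is higher in aged mice.

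Genes of striatal medium spiny neurons, which lie beneath the cortex, were lower in the aged samples. Of 14 tested genes, 0 had a positive change, 12 had aged arrays below all young arrays and 3 were down-regulated, with a median change of -0.61. Adora2a, the adenosine receptor of the indirect pathway, was at 0.12, 0.78, -0.02 and 0.85 in young mice and at -0.67, -1.51, -0.77 and -2.59 in aged mice (change -1.82, adjusted p = 0.01). Rgs9, which ends dopamine receptor signals, was at 2.54, 2.70, 2.75 and 2.94 in young mice and at 1.73, 1.43, 1.78 and 1.13 in aged mice (change -1.22, adjusted p = 0.0155). Penk, the precursor of enkephalins, was at 5.14, 5.32, 5.22 and 5.31 in young mice and at 4.60, 4.02, 4.45 and 4.49 in aged mice (change -0.86, adjusted p = 0.036). Ppp1r1b, which encodes DARPP-32, and the dopamine receptors Drd1 and Drd2 had changes of -0.56, -0.27 and -0.76 and did not pass. The summed level of the list was 87.8 to 108 in young and 51 to 64.9 in aged mice, without overlap. Whether the dissected cortex held unequal amounts of striatum at the 2 ages was not tested. Without the aged mouse numbered 4, 0 of the 14 were called by limma, and the changes of Adora2a and Rgs9 were -1.42 (adjusted p = 0.0597) and -1.09 (adjusted p = 0.0559).

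Of 20 neuropeptide genes, 2 were down-regulated, Penk and Adcyap1, which encodes PACAP and fell by 0.61 (adjusted p = 0.00306). Interneuron peptides gave no call: Sst had a change of 0.01, Vip of 0.19, Cort of 0.03 and Npy of -0.39 (adjusted p = 0.132). Without the aged mouse numbered 3 or 4, 0 neuropeptide genes were called by limma, and without the aged mouse numbered 2 or any 1 young mouse, 1 was.

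Lists of new neuron and proliferation genes held 1 call between them. Of 17 tested immature neuron genes, 0 were called by limma with Benjamini-Hochberg adjustment, 3 passed an unadjusted p of 0.05, and the median change was -0.11. At an adjusted p under 0.05 without a fold threshold 1 was called, Sox4, with a change of -0.57 (adjusted p = 0.00377) and arrays that did not overlap. Dcx, the doublecortin of migrating neurons, had a change of -0.34 (adjusted p = 0.436). Of 14 proliferation genes, Rrm2, a subunit of ribonucleotide reductase, was the only one called, at -1.1, -1.21, -1.27 and -1.18 in young mice and -1.78, -2.02, -1.85 and -1.99 in aged mice (change -0.72, adjusted p = 0.00774). Mki67, the Ki-67 antigen of cycling cells, had a change of -1.03 with groups that overlapped (adjusted p = 0.36). The median change of the 14 was -0.07, and 5 of them had a positive change. Outside the list, the mitotic genes Prc1 and Spc25, picked after their values were seen, were also down-regulated, with changes of -0.81 and -0.68.

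Among 24 cell cycle inhibitors and p53 targets, 1 was up-regulated. Cdkn2a, which encodes p16 and p19Arf and marks senescent cells, was above background in 0 of 4 young mice and 4 of 4 aged mice. It was at least 2.18-fold higher with age (adjusted p = 8.1e-05) at its probe at chr4:88920405-88920464 of mm9, and its other probe, which was too dim to be tested, had a change of 0.10. Cdkn1a, which encodes p21, had a change of 0.40 (adjusted p = 0.719).

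Immediate early genes, which neurons induce soon after activity, differed among the young mice. Of 18 tested, 2 were up-regulated, Fosb by 0.98 (adjusted p = 0.00183) and Klf4 by 0.71 (adjusted p = 0.0163), the latter with overlapping groups. Fos was at 0.34, 1.85, 2.14 and 0.26 in young mice and at 1.47, 1.79, 1.49 and 1.19 in aged mice (change 0.34, adjusted p = 0.851). The list mean split the young mice, at -0.36 and -0.49 for those numbered 1 and 4 and at 0.36 and 0.49 for those numbered 2 and 3. Without any of 4 arrays, the aged mice numbered 2 or 3 or the young mice numbered 2 or 4, 1 gene was called, and without the aged mouse numbered 4, 3 were. The cAMP response element TGACGTCA, searched on both strands of the same promoter windows, was in 2 of 15 members with a promoter (13.3%), against 2.03% of all genes, and neither called gene held it.

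Of 19 circadian clock genes, 5 were up-regulated, with a median change of 0.37. Under median scaling 2 were called, under normexp background correction 3, and with the methods' t-test after adjustment 0. Per1, a repressor of the clock, was at 3.40, 3.65, 3.84 and 4.27 in young mice and at 4.62, 4.84, 4.50 and 4.78 in aged mice (change 0.90, adjusted p = 0.0147). Bhlhe40, another repressor, rose by 1.1 (adjusted p = 8.2e-06), its relative Bhlhe41 by 0.74, Ciart by 1.06 and Per3 by 0.71. The groups overlapped for Ciart and Per3, and Ciart was not called in 10 of the 22 alternatives. Arntl, the activator BMAL1, had a change of -0.45 (adjusted p = 0.047), under the fold threshold, with aged arrays below the young ones. The output gene Dbp was at 4.32, 4.58, 4.38 and 5.97 in young mice and at 5.48, 5.54, 5.36 and 5.31 in aged mice (change 0.61, adjusted p = 0.234), so the young mouse numbered 4 lay above every aged mouse. That mouse had a list mean of 0.40, against -0.17 to -0.11 in the other young mice and 0.30 to 0.38 in aged mice. Without it 8 clock genes were called, without the young mouse numbered 1 there were 2, and without the aged mouse numbered 2 or 4 or the young mouse numbered 2 there were 3. The labels give no time of day of sampling, so time of day and age cannot be told apart. The E-box CACGTG, which is its own reverse complement, was found in the promoters of 5 of 17 clock genes (29.4%), against 8.09% of all genes, and in 3 of the 4 called genes with a promoter.

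Stress, lipid and degradation genes each gave a few calls. Of 31 antioxidant and glutathione genes, 3 were up-regulated: Nfe2l2, which encodes the oxidative stress factor NRF2, by 0.78 (adjusted p = 2.34e-05), Hmox1, heme oxygenase 1, by 0.68 (adjusted p = 0.000427), and Mgst1 by 0.61. Nfe2l2 was at 0.56, 0.55, 0.52 and 0.55 in young mice and at 1.34, 1.53, 1.44 and 0.99 in aged mice, without overlap. The other probe of Hmox1 had a change of 0.25 that was not called. The median of the list was 0.04, and Sod1, Cat and Gpx4, which remove superoxide, hydrogen peroxide and lipid peroxides, had changes of -0.02, -0.12 and 0.01. Of 29 lysosomal genes, 24 had a positive change and 2 were up-regulated, both cathepsins: Ctss by 1.08 (adjusted p = 7.35e-06) and Ctsz by 0.63 (adjusted p = 0.000203). With no fold threshold, 8 lysosomal genes passed. Without the aged mouse numbered 4 there were 4 lysosomal calls, and without the aged mouse numbered 2 or 3 or the young mouse numbered 3 there was 1. Of 24 heat shock genes, the co-chaperone Bag3 was called with a rise of 0.62, and Hspa1a had a change of 0.51 (adjusted p = 0.00869), just under the fold threshold. The call of Bag3 was lost without the aged mouse numbered 2 or 3 or the young mouse numbered 4.

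Of 24 genes of cholesterol synthesis and transport, 1 was called up-regulated and 20 of the 24 had a positive change. The synthesis genes Hmgcs1 and Sqle had changes of 0.11 and 0.24. Of 14 genes of amyloid precursor processing and clearance, 0 were called by limma with Benjamini-Hochberg adjustment, and 0 passed even an unadjusted p of 0.05. App had a change of 0.04 and Bace1 of -0.08. Ide, which degrades insulin and amyloid-beta, was at 0.66, 0.64, 0.45 and 1.50 in young mice and at 1.63, 1.58, 0.91 and 0.60 in aged mice, and the groups overlapped (adjusted p = 0.449). Of 23 phospholipase A2 and eicosanoid genes, the prostacyclin synthase Ptgis was called with a rise of 0.84 (adjusted p = 0.0171), which was lost without the aged mouse numbered 2 or the young mouse numbered 1. Pla2g3, a secreted phospholipase A2, was at -1.77, -2.11, -1.96 and -2.25 in young mice and at -1.57, -1.61, -1.59 and -0.80 in aged mice. These groups did not overlap, but the aged mouse numbered 4 lay apart, and the change of 0.63 had an adjusted p of 0.515.

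Respiratory chain and vessel genes gave no call, which in lists of this size is near the shares over all genes (2.33% up-regulated and 0.474% down-regulated). Of 40 respiratory chain genes 0 were called by limma with Benjamini-Hochberg adjustment and 1 passed an unadjusted p of 0.05, with changes from -0.15 to 0.14. Of 24 endothelial and barrier genes 0 were called by limma and 6 passed an unadjusted p of 0.05, with a median change of 0.02. At an adjusted p under 0.05 with no fold threshold 1 was called, the tight junction gene Cldn5, with a change of -0.42 (adjusted p = 0.0337). Vwf, the von Willebrand factor, had a change of 0.82 (adjusted p = 0.0567). Of 36 collagen and matrix genes, Timp1 was up-regulated and the membrane metalloproteinase Mmp15 was down-regulated, with a change of -0.65 (adjusted p = 0.017) that was lost without the aged mouse numbered 1 or 2 or the young mouse numbered 4, and Col1a1 and Col3a1 had changes of -0.04 and -0.52. Of 10 clustered protocadherins, adhesion molecules that give neurons their surface identity, 3 were up-regulated: Pcdhb9 by 1.19 (adjusted p = 1.34e-08), Pcdhb2 by 1.0 and Pcdhb3 by 0.99. Pcdhb2 was above background in 3 of 4 young mice and in 10 of the 22 alternatives it was not called, or in 1 of them not tested. Of the family outside the list, Pcdhb14 and Pcdhb4 rose by 0.68 and 0.66, and Pcdhb8, above background in 1 of 4 young mice, was also called (adjusted p = 0.0141). Pcdhb9 was at -2.29, -2.61, -2.38 and -2.46 in young mice and at -1.25, -1.29, -1.25 and -1.20 in aged mice. In a list of 16 annexin and S100 genes that left out S100a9 and S100a4, 4 were up-regulated: S100a8, Anxa1 by 0.92, Anxa2 by 0.70 and S100a6 by 0.70. A dimmer probe of Anxa1 had a change of 0.81 that was not called.

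Of 4 genes tested in the list for blood, the haemoglobin gene Hbb-b2 was called, with a change of 2.93 (adjusted p = 0.0492), a call that was lost without any 1 of the 8 arrays. Hba-a1 was at 0.32, 0.02, 0.07 and -1.77 in young mice and at 2.43, 1.55, 2.79 and 2.24 in aged mice (adjusted p = 0.0844). Hbb-b1 was at -0.48, -0.85, -1.07 and -2.94 in young mice and at 1.56, 0.80, 2.01 and 1.28 in aged mice (adjusted p = 0.0679). Neither of these passed, though their groups did not overlap. The fourth gene had a change of -0.14, and the summed level of the list was 73.9 to 88.7 in young and 73.2 to 84.3 in aged mice. Alas2, which starts heme synthesis in red cells, was above background in 0 young and 3 aged mice. The part of blood in the rise of S100a8 and S100a9 was not tested. Of 12 choroid plexus genes 0 were called by limma, and 0 passed an unadjusted p of 0.05.

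**Figure D4:**
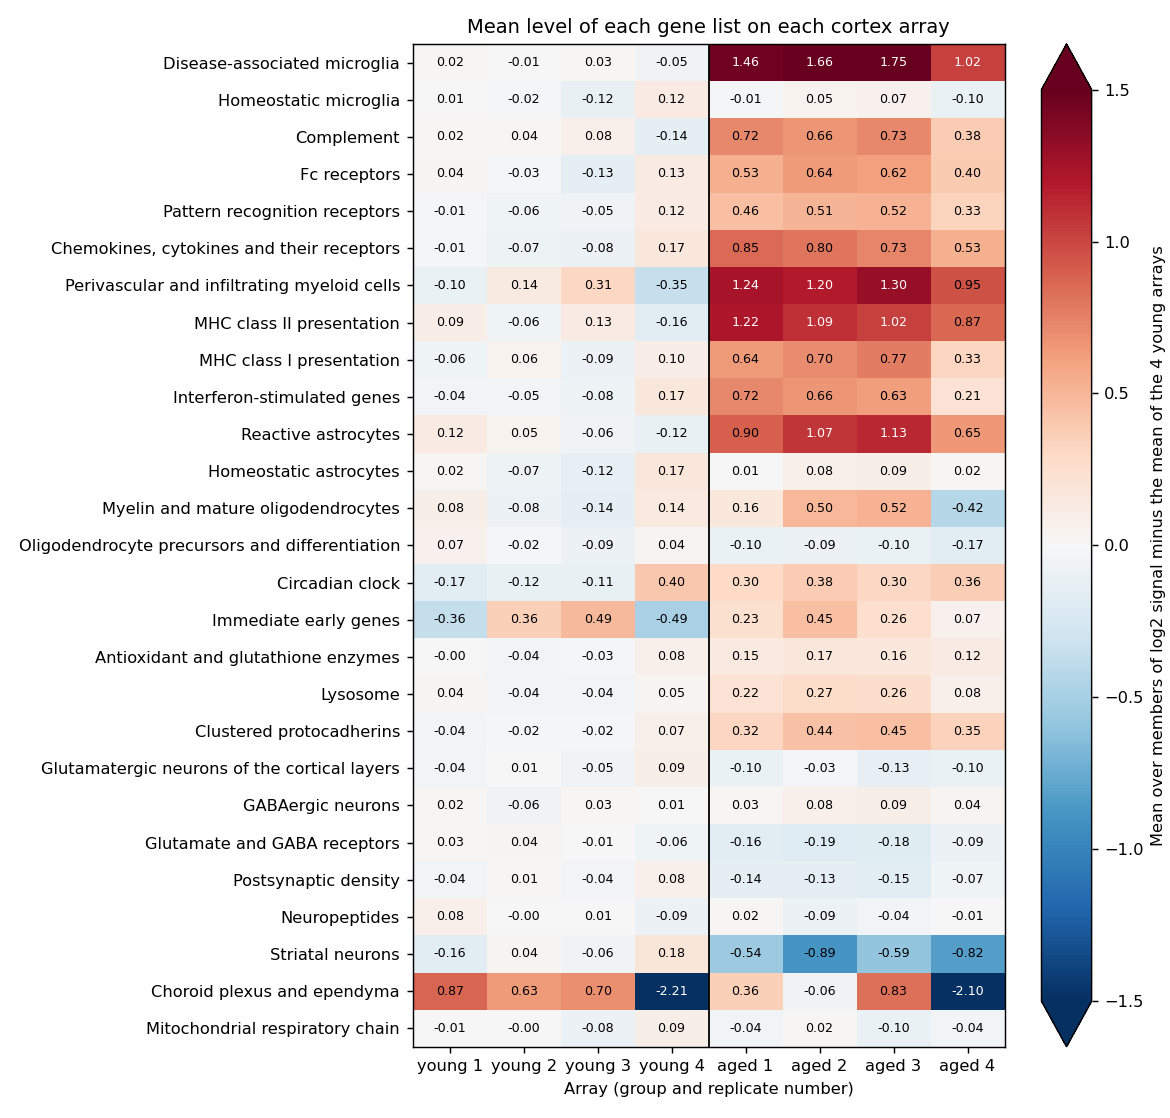
Mean over the tested genes of each list (rows) on each of the 8 arrays (columns), as log2 level minus the mean of the 4 young mice. The microglial disease, complement, antigen presentation, interferon, chemokine and reactive astrocyte lists are positive in each aged mouse and least so in the aged mouse numbered 4, the striatal list is negative in each aged mouse, and the choroid plexus list is lowest in the mice numbered 4 of both groups.

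Over all genes, the largest rises with groups that did not overlap were led by genes already described, Cst7, Itgax, Clec7a, Lilrb4a, Ccl8, C4b, S100a9 and S100a8. The others were Bpifb9b, Ankrd22, Serpina1a and Slamf8. Bpifb9b, a secreted lipid-binding protein gene, was at least 8.03-fold higher in aged mice, from a probe assigned to 2 genes, and its call was lost without the aged mouse numbered 3 (adjusted p = 0.0604). Ankrd22 was at least 3.35-fold higher. Serpina1a, an antitrypsin gene with near-identical copies, rose by 3.39 (adjusted p = 0.00283), with young mice spread from -6.70 to -2.35. It was above background in 2 of 4 young mice, so this change rests partly on signals near background. Slamf8, a receptor of myeloid cells, was at least 2.13-fold higher.

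Several of the largest falls were in genes that fell below background. Zar1, known as an oocyte factor, was above background in 4 of 4 young and 0 of 4 aged mice and was at least 2.83-fold lower with age (adjusted p = 0.00754). Mybpc3, a cardiac myosin-binding protein gene, was at least 3.49-fold lower. It was at -3.42, -2.65, -2.99 and -0.95 in young mice, so the bound rests partly on the young mouse numbered 4. Neurog2 and Hes3, transcription factors of neural progenitors, were called down-regulated. Neurog2 was at least 1.97-fold lower, and Hes3 was above background in 4 of 4 young and 1 of 4 aged mice (adjusted p = 0.0137). Mybpc3 and Hes3 were both highest in the young cortex numbered 4, and their means in young cerebellum were 3.46 and 3.54. The summed level of the cerebellar neuron list was 38.4 in that cortex and 25.6 to 28.3 in the other young cortices. Whether this bears on the falls of Mybpc3 and Hes3 was not tested. Tnnc1, which encodes the slow troponin C, was at -1.22, -1.01, -1.12 and -0.39 in young mice and at -2.39, -2.78, -2.70 and -2.02 in aged mice (change -1.54, adjusted p = 4.37e-06). Rnf122, Cyp11a1, Hsbp1l1 and Olfr715b had changes of -1.83, -1.34, -1.28 and -1.21, with 2 or 3 of the 4 aged mice above background, beside Adora2a and Rgs9. The call of Hes3 was lost without the young mouse numbered 4 or the aged mouse numbered 2, and that of Cyp11a1 without any of 7 arrays.

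Whether the cortex aged like the cerebellum was tested as the difference between the changes of the regions. In the cerebellum 897 of 15484 genes were up-regulated (5.79%) and 161 were down-regulated (1.04%). Of the 349 genes up-regulated in the cortex 218 were also up-regulated in the cerebellum, and of the 71 down-regulated ones 13 were. Across 14616 genes tested in both, which are not independent replicates, the correlation of the changes was 0.559. The change was more positive in the cortex for 97 of 15842 genes (0.612%) and more negative for 223 (1.41%). In 86 and 196 of these each of the 4 groups had an array above background. In the others the size of the difference is not measured and is not given. Young and aged cerebellum lay on different slides, so slide and age cannot be told apart in that region. The choroid plexus gene Ttr had a cerebellar change of -7.70, and its part in the other differences was not tested.

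Many microglial genes rose more in the cerebellum. Of the 26 disease-associated microglia genes, 17 were up-regulated in the cerebellum with a median change of 2.40, and for 10 the change was called more negative in the cortex. In 6 of the 10 each group had an array above background. Cst7 and Itgax were above background in 0 of 4 young mice of either region, so their differences are not given. Trem2 rose by 0.85 and 2.67 (difference -1.82, adjusted p = 1.35e-05), and C1qa by 0.87 and 2.25 (difference -1.38, adjusted p = 0.000138). The phagocyte gene Cd68 rose by 0.93 and 2.98 (difference -2.06, adjusted p = 0.00018), with 2 of 4 young cerebella above background. Lpl, not called in the cortex, had a change of 2.30 in the cerebellum. Of the homeostatic microglia genes, 0 were up-regulated in the cortex and 9 in the cerebellum, where the median was 0.76, and for 7 of 18 the difference was called. Interferon-stimulated genes gave 9 calls in the cortex and 35 in the cerebellum, and the difference was called for 6 of 49. It was called for 5 of 14 striatal genes, 3 of 7 Fc receptor genes, 4 of 21 complement genes, 4 of 25 chemokine and cytokine genes, 2 of 11 class II genes, 2 of 23 reactive astrocyte genes and 0 of 18 class I genes.

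**Figure D5:**
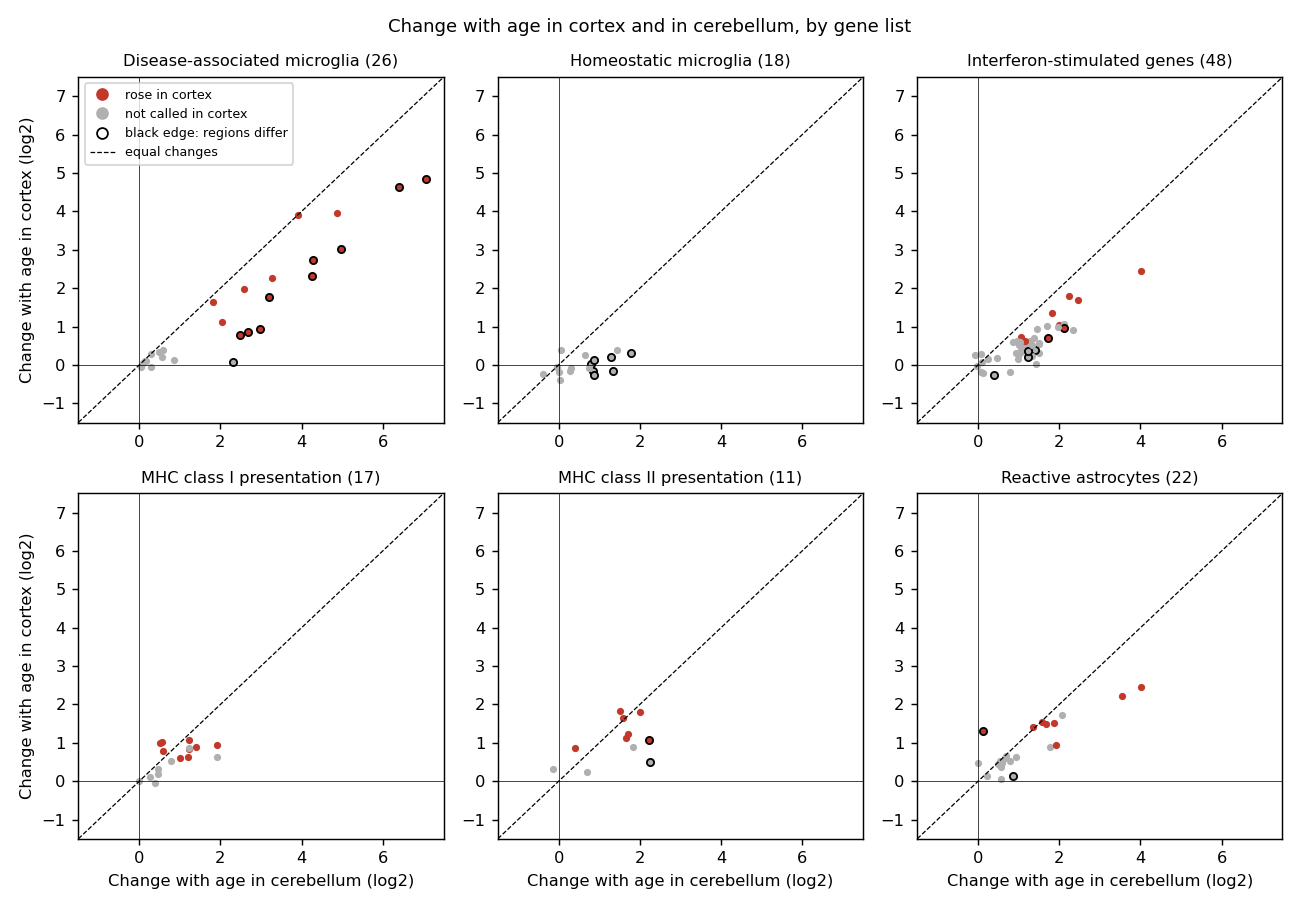
Log2 change with age in cerebellum (x axis) and cortex (y axis) of the genes of 6 lists, each point 1 gene, with a black edge where the difference between the regions was called. Of the disease-associated microglia genes 10 have a called difference and lie below the diagonal, 4 of them from signals below background in a group. Trem2 is at 2.67 and 0.85, while Vim, a reactive astrocyte gene, lies above the diagonal at 0.12 and 1.30.

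Some genes had a more positive change in the cortex. Vim rose by 1.30 in the cortex and had a change of 0.12 in the cerebellum (difference 1.19, adjusted p = 0.00209), whereas for Gfap the changes were 1.50 and 1.87 and the difference was not called (adjusted p = 0.686). Ankrd22 and Smok2b, a kinase gene, were above background in 0 of 4 young and 4 of 4 aged cortices and in 0 of 4 cerebella of either age, so the size of the difference is not given (adjusted p = 0.024 and 0.000577). Sec14l3, Lhx3 and Rara, the retinoic acid receptor alpha, had differences of 2.17, 1.78 and 1.75, with cerebellar changes of -0.97, 0.32 and -1.13. Rara rose by 0.62 in the cortex and was down-regulated in the cerebellum (limma adjusted p = 1.64e-10), so its larger change was in the cerebellum. Sec14l3 and Lhx3 were above background in 1 of 4 young cortices, and Sec14l3 in 1 of 4 aged cerebella. Sec14l3 was called in the cortex with a change of 1.20, and without any 1 of 7 of the arrays that call was lost. Among striatal genes, Rgs9 and Drd2 had differences of -2.17 and -1.75, with cerebellar changes of 0.96 and 0.99.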

How the data were processed

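Total RNA of 40 samples was hybridized to 1-colour Agilent arrays of 62976 spots. The deposited intensity of each spot is the processed signal, background-subtracted by the authors with Agilent Feature Extraction, which is version 10.1.1.1 in the submitters' processing notes and 10.7.3.1 per the file headers. The authors also deposited log2 values, which were used as an alternative. They differed from the scaled signals, centred by probe, by a median of 0.0009725. Of the 61 columns of an array, 45 were not used.

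Control and outlier-flagged spots were left out and 55589 of 55681 gene probes were kept. The log2 intensity minus the array's 75th percentile was fitted with limma 3.58.1 in R 4.3.3, using 1 coefficient per group (10 groups of 4 arrays), so that all groups shared 1 estimate of spread. Probes had to be well above background on 4 arrays of a compared group. Benjamini-Hochberg adjustment ran over all probes tested, with thresholds of 0.05 and 1.5-fold. The cortex was compared with the cerebellum by an interaction contrast. Bounds were set from the lowest signal well above background on each array. The 75th percentile intensity of the 8 cortex arrays was 365 to 517, and the number of arrays limits the precision. Steps were checked on simulated data. No label says how mice of a group relate to one another, so p-values measure the spread between samples. That spread is pooled over the 10 groups and is not that of the 8 cortex arrays alone. Probe positions are in mm9 as the files give them, and promoters are RefSeq's in GRCm38.p6.

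The members and lists were chosen with earlier results of these data known. Genes were named by a rule: the 12 largest rises and falls without overlap, anchor genes and up to 4 called members a direction of each list, the 5 largest interactions each way, and genes on which small counts rest. C1qb, C1qc, Cbln3, Ccl3, Ccl4, Cd52, Cd79b, Ch25h, Csf1, Gabra6, Hbb-b1, Ifitm3, Ltf, Ngp, Oas1a, Osmr, Pcdhb4, Pcdhb8, Pcdhb14, Per3, Prc1, Sox4, Spc25, Spp1, Tyrobp and Xist were added after their values were seen. Some genes that the rule named are not reported here. Alternatives were scaling by the median, quantile normalization, background correction by normexp (offset 50), other filters on dim probes, array weights, a replicate block, the 8 arrays alone, the methods' t-test, and each array left out.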

Additional observations from a re-analysis of the deposited data

Results flagged for a closer look

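Single arrays stood apart from the other 3 of their group in 28 of the 367 gene groups and 5 of the 84 list means tested with Dixon's test, where chance flags about 1 in 20 groups. Of these, 18 were at the young mouse numbered 4 and 9 at the aged mouse numbered 4. In the young mouse numbered 4 the outlying levels were P2ry12 1.14, Trem2 2.56, H2-D1 2.11, Oasl2 -1.19, Ifi27l2a -1.16, Lgals3bp 1.25, Nr1d1 0.79, Dbp 5.97, Npy 4.05, Hmox1 -0.4, Ttr 0.76, Kl -3.07, Folr1 -2.53 and Hba-a1 -1.77. Its outlying list means were 0.17 for interferon-stimulated genes, 0.4 for the circadian clock, -0.27 for collagens and -2.21 for the choroid plexus. In the aged mouse numbered 4 they were Lhx3 -1.85, Lgals3bp 1.85, Ccl5 -2.57, Aqp4 1.96, Arntl 1.49, Fezf2 1.05, Pla2g3 -0.8 and Pla2g7 3.87, with a list mean of -0.17 for oligodendrocyte precursors. Elsewhere Tlr7 was at -0.53 and Apod at 5.4 in the young mouse numbered 3. Clec4n was at -3.47 in the young mouse numbered 2 and Sqle at 3.8 in that numbered 1. Fcgr3 was at 0 in the aged mouse numbered 1 and Bmp4 at 0.32 in that numbered 3.

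For 27 named genes with an array above background in each group the change with age differed between cortex and cerebellum by limma's interaction test with Benjamini-Hochberg adjustment, and slide and age cannot be told apart in the cerebellum. The difference, cortex minus cerebellum, was negative for 20. Among microglial and myeloid genes it was -2.23 for Lpl, -2.06 for Cd68, -1.97 for Ms4a6d, -1.96 for Gpnmb, -1.82 for Trem2, -1.47 for Aif1, -1.39 for Fcer1g, -1.38 for C1qa, -1.26 for Ms4a7, -1.21 for Fcgr2b, -1.16 for Ctss, -1.0 for Cx3cr1, -0.98 for Fcgr3, -0.73 for Tmem119 and -0.62 for Ctsd. It was -2.17 for Rgs9, -1.75 for Drd2, -1.61 for Tnnc1, -1.15 for Lgals3bp and -0.92 for Rrm2. It was positive for 7: Pcdhb9 by 0.65, Sqle by 0.72, Vim by 1.19, Rara by 1.75, Lhx3 by 1.78, Sec14l3 by 2.17 and Ttr by 7.62.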

How the results depend on the processing

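The main analysis called 446 probes up-regulated and 142 down-regulated. The alternatives called 272 and 86 under median scaling, 216 and 64 under normexp background correction, 234 and 80 with the 8 arrays alone, and 186 and 59 with the methods' t-test after adjustment. With no fold threshold they were 773 and 390. Array weights gave 236 down-regulated probes, unadjusted limma 308 and the methods' t-test unadjusted 304. The 104 up-regulated list genes were 62 with the 8 arrays alone and 52 with the methods' t-test after adjustment. The 8 down-regulated list genes were 4 under median scaling, 5 under normexp, 19 with the methods' t-test unadjusted, 14 with unadjusted limma, 18 with no fold threshold, and 4 without the mice numbered 4 of both groups, a setting added after the data were seen. The 459 probes that differed between regions were 144 under median scaling, 789 with array weights and 1747 with unadjusted limma. Other list counts moved too. The methods' t-test after adjustment called 4 complement, 4 class I, 3 myeloid, 2 annexin, 1 myelin, 1 lysosomal and 1 antioxidant gene, and normexp called 1 antioxidant and 5 chemokine genes. The causes of these shifts were not tested.

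Leaving out 1 array at a time gave 342 to 495 up-regulated and 99 to 148 down-regulated probes, 81 to 115 up-regulated and 5 to 8 down-regulated list genes, and 304 to 757 probes that differed between regions. The 5 down-regulated list genes came without the aged mouse numbered 3 or 4, and 757 came without the young cerebellum numbered 4. Quantile normalization and the authors' values gave 424 and 446 up-regulated probes. Replicate numbers follow slide rows and were not treated as pairing. Correlations of the deviations of same-number young and aged arrays from their group means were 0.147, -0.004, 0.496 and 0.363 for numbers 1 to 4. Those between numbers 3 and 4 were -0.424 and -0.365, so these arrays shared structure across the ages. Its source was not tested. With the replicate number as a block there were 447 up-regulated and 144 down-regulated probes, 104 and 8 list genes, and 477 probes that differed between regions. No result changed its direction when called. Dim genes limit the precision, since their levels lie near background.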

Other observations

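Of 4256 long intergenic RNA probes tested, 18 were called higher and 28 lower in aged mice, beside 446 and 142 of all 28043 probes. No difference between them was tested. Of the antitrypsin family, Serpina1e and Serpina1c were called up-regulated with Serpina1a (limma adjusted p = 0.00548 and 0.00759), though their probes may bind each other's transcripts. Serpina1e and Serpina1c were above background in 1 of 4 young and 4 of 4 aged mice, so no exact change is given. The files assign the Serpina1c probe to 4 genes. Further class I genes outside the lists also rose, among them H2-K2 by 1.07, H2-Q1 by 0.96 and H2-T10 by 0.62. These genes were chosen after their values were seen.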
